A study of Mus musculus with 38 samples.

Results

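Osteoclast precursors of mice given zoledronic acid together with G-CSF were compared with precursors of mice given G-CSF alone, within the first of the study's sequencing runs. The comparison held 6 of the 38 libraries of the series, 3 on each side, taken by their labels for cell type, treatment and run. The series measured RNA in whole marrow and in sorted precursors of mice left without treatment or treated with zoledronic acid (ZA), with G-CSF or with the pair. All mice were female C57BL/6 animals bought at an age of 6 to 7 weeks, and no transgene or deletion is named for them. Both groups received recombinant human G-CSF into the peritoneum at 50 µg per kg on each of 3 days. The combined group also received ZA at 100 µg per kg, with G-CSF starting 2 days later, so ZA is the labelled difference between the groups. The precursors were marrow cells depleted of lineage-positive cells and sorted as lineage-negative and positive for CD115, the M-CSF receptor encoded by Csf1r. The labels call the replicates biological but leave unsaid whether each came from its own animal or from a pool, so the tests measure the spread between these samples. Run 1 also held 1 precursor library of untreated mice and 1 of mice given ZA alone, whose values are given as reference without a test.

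Osteoclasts are the cells that resorb bone, and they form by fusion of precursors of the monocyte lineage under the cytokines M-CSF and RANKL. ZA is a nitrogen-containing bisphosphonate that binds bone mineral and, once taken up, inhibits farnesyl diphosphate synthase in the mevalonate pathway, which makes cholesterol and the lipid anchors of small GTPases. G-CSF drives neutrophil production and mobilizes progenitors from marrow, and the comparison asks what precursors carry when ZA is added to it.

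The 3 G-CSF libraries held 21.0, 28.3 and 27.0 M estimated counts (M for mega), and the 3 combined libraries 28.6, 33.2 and 27.9 M. The precursor profile was present in all 6. Csf1r, the gene of the sorting marker, lay between 462 and 533 CPM (counts scaled by the library total), against 77.8 to 118 in the 3 whole marrow libraries of the same run. The summed level of 16 B lineage genes was 182 to 234 CPM in the 6 libraries against 3020 to 3410 in marrow. The summed level of the erythroid genes (16 of 17 listed were in the table) was 576, 1082 and 318.6 CPM in the G-CSF libraries and 908, 1153 and 6973 in the combined libraries, against 196000 to 283000 in marrow. Combined replicate 3 stood apart from the other 5 libraries in this sum. Its correlations of log2 levels with the other run 1 precursor libraries, an r of 0.968 to 0.975 over 10415 genes, included the lowest of all pairs. They are a description across genes. Results that rest on this library are given without it as well.

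**Figure D1:**
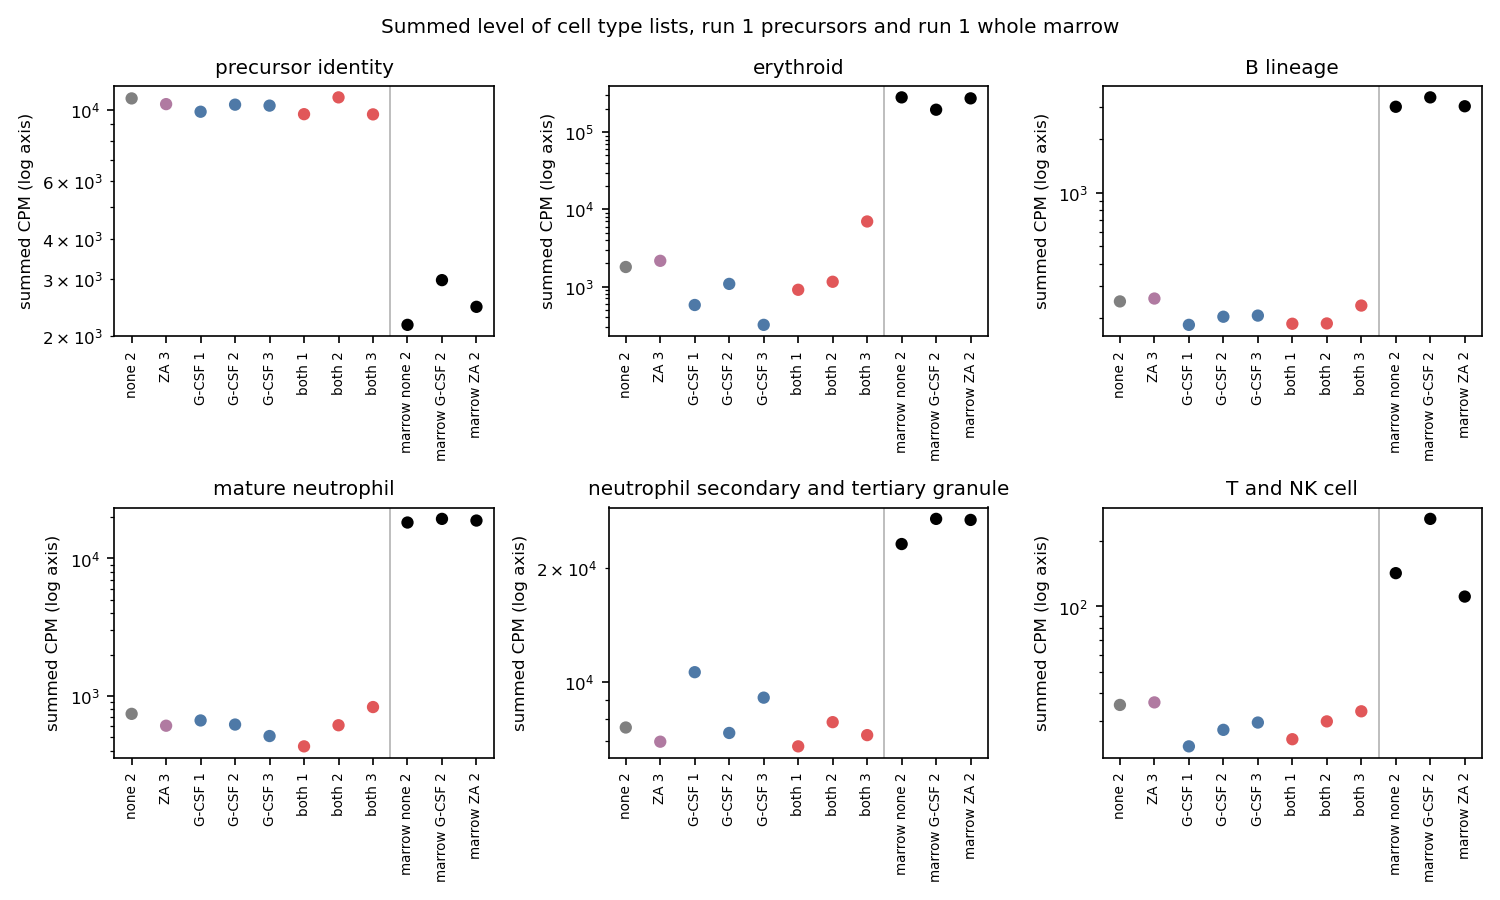
Summed level of 6 gene lists (CPM of the library total, log axis) in each of the 8 precursor libraries and 3 whole marrow libraries of run 1, 1 point per library. The precursor libraries lie above marrow for precursor genes and under it for the other lists. For the erythroid list, combined replicate 3 lies at 6973 CPM, above the other 5 libraries of the comparison, which reach 1153.

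No gene passed the test. edgeR's quasi-likelihood test called 0 of 15851 genes at an adjusted p under 0.05 (0%), the lowest adjusted p was 0.442, and unadjusted p values were under 0.05 for 1143 genes (7.21%). On the same counts, DESeq2's Wald test called 81 of 16613 genes (0.488%), 51 higher and 30 lower in the combined group, and in 73 of these the 3 combined libraries all lay on 1 side of the 3 G-CSF libraries. By that simple reading, without a test, 957 of 15851 genes (6.04%) were higher in every combined library and 1187 (7.49%) lower. The size of change that the data allow can be read from the intervals. For 10445 genes (65.9%) the 95% interval of the log2 change, combined over G-CSF, lay inside a 2-fold change in either direction. Values of genes below therefore describe these libraries, and none of them passed edgeR's test.

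Among genes of sufficient level without overlap, the 6 of lowest p on the higher side were led by Arhgap32 (ENSMUSG00000041444, chromosome 9, 32116136 to 32268446, mm10), a GTPase-activating protein. Its TMM-scaled level was 18.8, 19.8 and 19.8 CPM in the G-CSF libraries and 35.6, 37.7 and 44.4 in the combined libraries. All 3 combined libraries thus lay well above the G-CSF libraries, and the untreated (21.9) and ZA (24.9) libraries lay near the latter. The log2 change was 1.02 ± 0.12 (SE, n = 3 against 3; adjusted p = 0.442). Slc2a3 (ENSMUSG00000003153, chromosome 6, 122727809 to 122801640), the glucose transporter GLUT3, was at 16.4, 11.9 and 16.98 CPM with G-CSF and at 29.5, 29.1 and 29.4 with both agents. The combined libraries were nearly equal to each other, and the untreated (10.9) and ZA (19.2) libraries lay under them. Its log2 change was 0.97 ± 0.15 (adjusted p = 0.493).

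Cdk6 (ENSMUSG00000040274, chromosome 5, 3341485 to 3531008), a cyclin-dependent kinase of the early cell cycle that is prominent in blood progenitors, was at 249, 245 and 274 CPM with G-CSF and at 347, 325 and 368 in the combined libraries. The groups did not overlap, and the reference libraries lay between them or within the G-CSF range (263 untreated, 295 ZA). The log2 change was 0.45 ± 0.07 (adjusted p = 0.493). Kmt2a (chromosome 9, 44803355 to 44881296), the histone methyltransferase also called MLL, was at 79.1, 65.9 and 73.9 against 109, 108 and 98.4 CPM (0.54 ± 0.09, adjusted p = 0.568). Its untreated (88.7) and ZA (88.3) libraries lay between the groups. Foxj3 (chromosome 4, 119537004 to 119629119), a forkhead transcription factor, was at 39.0, 36.9 and 30.3 against 63.2, 52.2 and 57.2 CPM (0.71 ± 0.13, adjusted p = 0.568). Tbc1d9b (chromosome 11, 50131396 to 50172785), of a family of Rab GTPase-activating proteins, was at 79.6, 82.1 and 77.8 against 118, 128 and 109 CPM (0.58 ± 0.08, adjusted p = 0.493). For these last 2 genes the ZA library (36.4 for Foxj3, 75.1 for Tbc1d9b) sat with or just under the G-CSF libraries. The untreated library did not: it was at 70.2 for Foxj3, above all 6, and at 115 for Tbc1d9b, within the combined range.

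On the lower side, Btnl9 (ENSMUSG00000040283, chromosome 11, 49165585 to 49187159), a butyrophilin-like surface protein, had the largest change of the 6. It was at 8.16, 11.4 and 6.47 CPM with G-CSF and at 3.53, 2.68 and 3.32 with both agents. The untreated (8.28) and ZA (11.8) libraries lay with the G-CSF libraries, so the combined libraries alone were low among these 8. The log2 change was −1.44 ± 0.27 (adjusted p = 0.592). Nsun3 (chromosome 16, 62732444 to 62786818), an RNA methyltransferase of mitochondria, was at 36.8, 26.6 and 33.3 against 16.6, 15.3 and 19.8 CPM (−0.89 ± 0.16, adjusted p = 0.568). Here the untreated library (16.98) lay with the combined libraries and the ZA library (26.8) with the G-CSF libraries. Mcub (chromosome 3, 129914960 to 129970206), an inhibitory subunit of the mitochondrial calcium uniporter, was at 54.2, 46.3 and 58.8 against 36.3, 31.1 and 31.5 CPM (−0.68 ± 0.12, adjusted p = 0.568).

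The other 3 were abundant. S100a6 (ENSMUSG00000001025, chromosome 3, 90612882 to 90624181), a small calcium-binding protein, was at 183, 198 and 209 CPM with G-CSF and at 144, 138 and 136 with both. The G-CSF libraries were all above the combined ones and the reference libraries lay between them (165 untreated, 146 ZA). The log2 change was −0.49 ± 0.07 (adjusted p = 0.493). Capg (chromosome 6, 72544391 to 72562983), an actin filament capping protein of macrophages, was at 264, 244 and 258 against 203, 181 and 198 CPM (−0.39 ± 0.07, adjusted p = 0.568). H2afz (chromosome 3, 137864487 to 137866922), a histone variant, was at 701, 775 and 758 against 564, 615 and 539 CPM (−0.37 ± 0.07, adjusted p = 0.592). S100a4, the neighbour of S100a6 on chromosome 3 and named after its values were seen, was at 233, 251 and 266 against 179, 149 and 193 CPM (−0.52 ± 0.10, adjusted p = 0.597). All 12 genes chosen by the rule were among the 81 that DESeq2 called, with adjusted p from 9.54e-09 for Arhgap32 to 0.0188 for H2afz. The rule chose them by low edgeR p and groups without overlap in the same libraries, so this is not separate support.

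**Figure D2:**
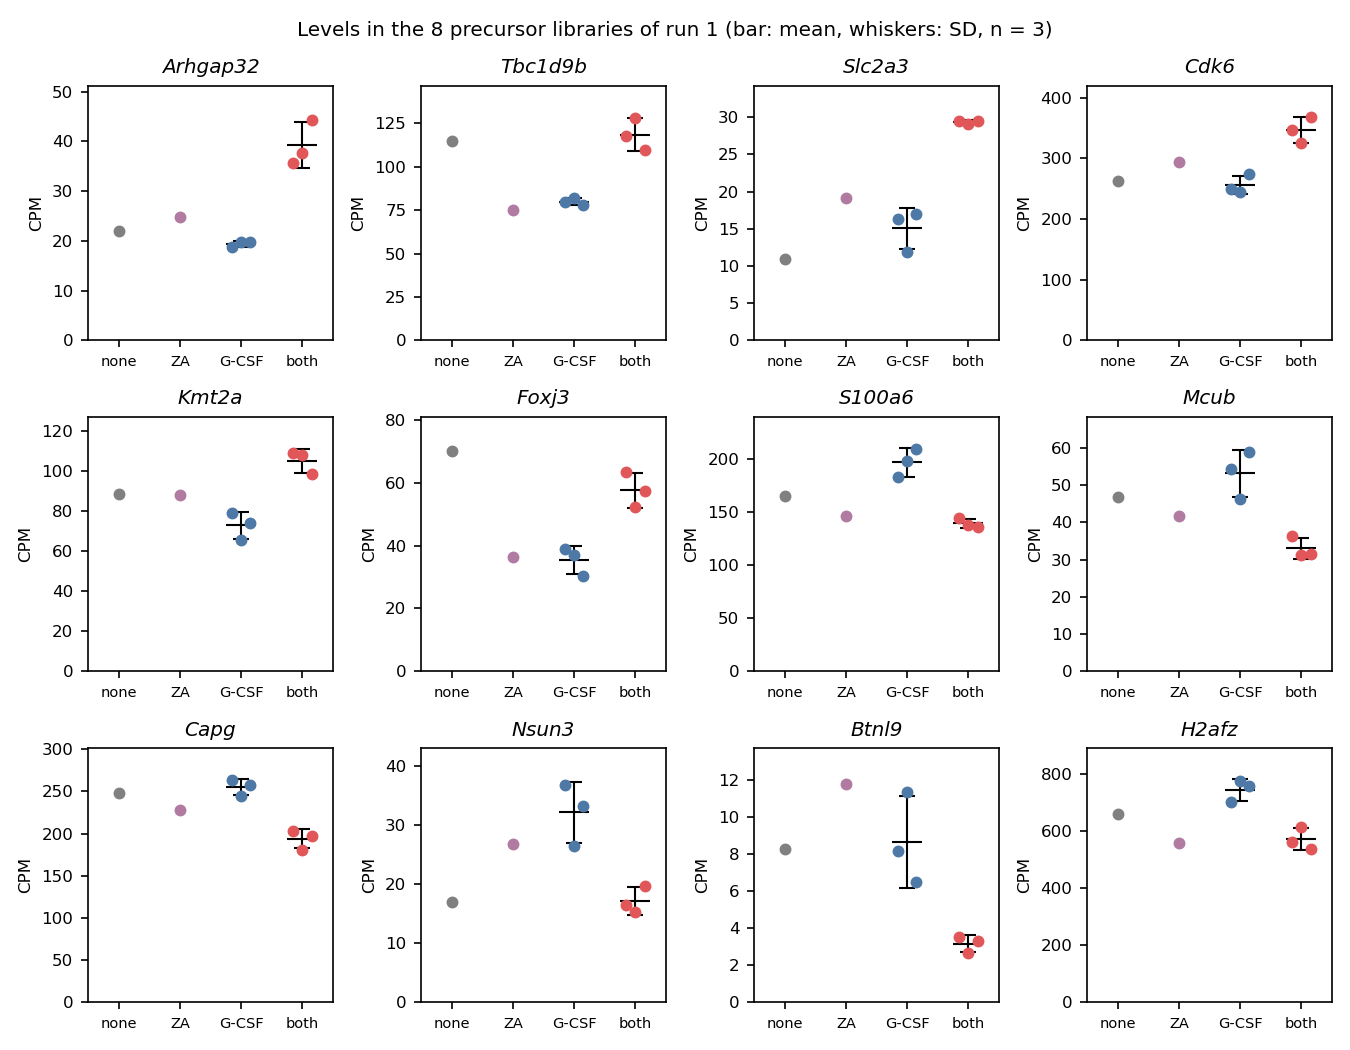
TMM-scaled CPM of the 12 genes in each precursor library of run 1, grouped as untreated (none, 1 library), ZA (1 library), G-CSF (3) and both agents (3). Bars are means and whiskers SD. In every panel the 3 libraries of both agents lie apart from the 3 G-CSF libraries, which the choice of the genes requires.

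The targets and markers that frame the question differed little between the groups. Csf1r was at 530, 479 and 462 CPM with G-CSF and at 510, 451 and 467 with both, fully overlapping, and its log2 change was −0.03 with a 95% interval of −0.21 to 0.15. The G-CSF receptor gene Csf3r was at 171, 155 and 128 against 143, 140 and 139 CPM (−0.10, interval −0.35 to 0.15). Irf8, the transcription factor of monocyte fate, had a log2 change of −0.01 (interval −0.23 to 0.22). Cebpe, which drives late granulocyte differentiation, also had −0.01 (interval −0.41 to 0.40), and the primary granule enzyme gene Mpo had 0.17 (interval −0.03 to 0.38). Each of these intervals lay inside a 2-fold change.

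Genes of mature osteoclasts ranged from absent to well detected in these libraries. Tnfrsf11a, which encodes RANK, the receptor for RANKL, was at 5.42, 4.25 and 8.84 CPM against 9.56, 4.88 and 4.47, with a 95% interval from −0.85 to 0.93 that leaves changes of nearly 2-fold possible in both directions. Nfatc1, the master transcription factor of osteoclast differentiation, was at 72.1, 71.5 and 67.9 against 71.9, 69.8 and 64.5 CPM (−0.03, interval −0.21 to 0.16). The bone-resorbing protease gene Ctsk had 4.7, 9.6 and 4.8 estimated counts against 3.8, 0 and 3.8 and was too low to be tested. The fusion gene Dcstamp and the calcitonin receptor gene Calcr were at 0 in all 6 libraries, where a count of 0 allows up to 3 counts, or 0.0904 to 0.143 CPM. These limits cover counting error only. By contrast Acp5, the acid phosphatase that marks osteoclasts, was tested, at a mean of 6.27 CPM over the 6 libraries. Named after its values were seen, it had 127.1, 182.4 and 129.2 estimated counts, not scaled for library size, against 132.5, 221.4 and 250.2. Its log2 change was 0.25 and its scaled levels overlapped. The proton pump subunit gene Tcirg1 was at 361, 411 and 363 CPM against 323, 343 and 388, also overlapping. Of the 21 genes of osteoclast differentiation and resorption 16 were tested and 0 passed. Their median log2 change was −0.03 beside 0.01 over all genes tested. The adaptor gene Tyrobp (434, 431 and 455 against 382, 349 and 381 CPM) and the AP-1 gene Fos (19.6, 23.0 and 19.98 against 15.3, 15.1 and 12.6) were lower without overlap, and the transcription factor Mitf (14.48, 12.99 and 12.88 against 16.96, 15.98 and 14.87) higher without overlap. These were 2 lower (12.5%, against 7.49% of all genes) and 1 higher (6.25%, against 6.04%). Fos and Mitf were named after their values were seen.

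**Figure D3:**
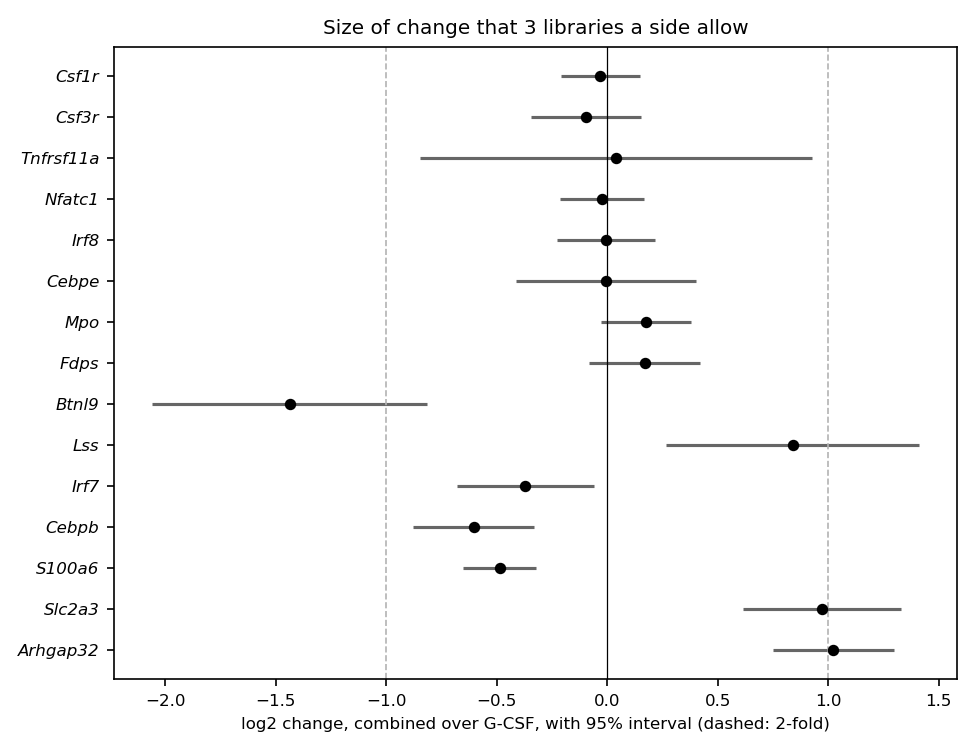
Log2 change, combined over G-CSF, of the genes on the vertical axis, with its 95% interval from the edgeR fit. Dashed lines mark a 2-fold change. Receptors, fate factors and Fdps, of the mevalonate pathway, center near 0, Tnfrsf11a has the widest interval of those near 0, and Arhgap32, Slc2a3, Lss and Btnl9 have intervals that reach past 2-fold.

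The mevalonate pathway, where ZA acts, held no called gene. Of 26 listed genes 25 were tested and 0 passed; 18 had a positive and 7 a negative change, with a median of 0.06. That median was 0.07 relative to all genes on the TPM scale, and −0.13 there without the filter on low values. The reference moved between these settings. The median of all genes was −0.26 with the filter (12981 genes) and −0.06 without it (28282 genes). The list's own TPM median was −0.19 with the filter. Fdps, which encodes farnesyl diphosphate synthase, was at 99.3, 111 and 107 CPM against 109, 137 and 108 (0.17, interval −0.08 to 0.42). The groups overlapped, combined replicate 2 was the highest, and the change was 0.05 without that library. Srebf2, the transcription factor that governs the pathway, had a log2 change of 0.09 (interval −0.11 to 0.30). In 2 of the 25 genes, Lss and Tm7sf2 (8.00% of those tested, against 6.04% of all genes), every combined library was higher.

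Lss (chromosome 10, 76531588 to 76557138) encodes lanosterol synthase and was named after its values were seen. It was at 8.30, 9.57 and 7.33 against 11.9, 12.3 and 20.6 CPM, with combined replicate 3 the highest. Its log2 change was 0.84 ± 0.25 (adjusted p = 0.624), and 0.53 without combined replicate 3. Acaca, the acetyl-CoA carboxylase that commits acetyl-CoA to fatty acid synthesis and a gene outside the list, was also picked after its values were seen. It was at 71.8, 60.1 and 54.0 against 84.4, 94.6 and 84.4 CPM (0.51 ± 0.12, adjusted p = 0.624). The untreated library (86.0) lay with the combined ones, and the ZA library (62.9) lay within the G-CSF range. The enzymes that attach the lipid anchors, in the prenylation list, had 0 of 10 called, a median of 0.03 and no member without overlap. All 10 had intervals inside a 2-fold change. The farnesyltransferase subunit gene Fnta, for one, was at 64.4, 61.9 and 65.9 against 63.0, 56.7 and 57.7 CPM.

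Genes of the interferon response had the lowest median of the 35 lists in this fit. Of 20 tested 0 passed, 16 had a negative change, and 7 (35.0%, against 7.49% of all genes) were lower in every combined library. The median was −0.40 (−0.32 relative to all genes on the TPM scale), and −0.31 to −0.43 on leaving out each library in turn. Their summed level was 574, 701 and 650 CPM in the G-CSF libraries and 455, 593 and 580 in the combined libraries, so the sums overlapped. Untreated precursors had 680 and ZA precursors 616. Members without overlap included the nucleic acid sensor Zbp1, the regulator Irf7 and the antiviral GTPase Mx1, all named after their values were seen. Zbp1 was at 24.7, 27.8 and 27.0 against 15.01, 22.21 and 16.02 CPM (−0.57, interval −0.95 to −0.18). Irf7 was at 40.5, 43.0 and 47.6 against 29.9, 30.9 and 39.7 (−0.37, interval −0.68 to −0.06). Mx1 was at 46.1, 81.1 and 51.1 against 30.1, 45.1 and 45.3 (−0.55, interval −1.13 to 0.03), with G-CSF replicate 2 the highest, and the change was −0.27 without that library and −0.39 without combined replicate 1. Stat2, a transcription factor of interferon signalling, differed less, at 77 ± 1.88 against 70.6 ± 1.6 CPM (SD, n = 3 each; log2 change −0.11, interval −0.28 to 0.06), lower without overlap. Bst2, which tethers budding virus, had a change of 0.00 (interval −0.32 to 0.32).

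Several lists, of myeloid function and of immediate early genes, leaned the same way with small changes. The neutrophil primary granule list did not. Of its 10 genes 0 passed, 7 were positive and 3 negative (median 0.10), and 0 were lower without overlap (0%, against 7.49% of all genes). Of 18 monocyte and macrophage genes 0 passed, 15 were negative (median −0.14) and 5 (27.8%, against 7.49% of all genes) were lower without overlap. The lysozyme gene Lyz2, shared with the secondary granule list, was the most abundant of them at 7687, 5739 and 7024 CPM against 5420, 5462 and 5004 (−0.35, interval −0.59 to −0.11). The chemokine receptor gene Ccr2 was at 1140, 1026 and 1007 against 949, 881 and 1029 and overlapped. Of 21 lysosome genes 0 passed, 15 were negative (median −0.06) and 8 (38.1%, against the same 7.49%) were lower without overlap. Among them was Lamp1, a lysosomal membrane protein (914, 818 and 849 against 762, 816 and 766 CPM). Of 12 MHC class II presentation genes 0 passed, 10 were negative (median −0.18) and 3 (25%, against 7.49%) were lower without overlap. The thiol reductase Ifi30 was at 386, 389 and 371 against 313, 299.9 and 332 CPM (−0.27, interval −0.41 to −0.12). Of 13 immediate early genes 0 passed, 12 were negative (median −0.22) and 3 (23.1%, against 7.49%) were lower without overlap. In bulk libraries like these, fewer cells of a type and less RNA per cell cannot be told apart.

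The lectin gene Lgals3 and the leukocyte actin regulator Lsp1, both named after their values were seen, belonged to no list. Lgals3 was at 490, 430 and 493 against 346, 388 and 341 CPM (−0.38 ± 0.08, adjusted p = 0.597), and Lsp1 at 594, 593 and 638 against 509, 474 and 470 (−0.32 ± 0.06, adjusted p = 0.592). In both the groups stood apart.

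In the G-CSF receptor signalling list, 0 of 16 passed, 4 (25%, against 7.49% of all genes) were lower without overlap and the median was −0.02. The largest of these 4 was Cebpb (chromosome 2, 167688915 to 167690418), the transcription factor of emergency granulopoiesis. It was at 305, 301 and 225 CPM with G-CSF and at 186, 177 and 181 with both, while untreated (259) and ZA (302) precursors lay in the G-CSF range. The log2 change was −0.60 ± 0.12 (adjusted p = 0.597), and DESeq2 called it (adjusted p = 0.00259). Cebpa, which commits progenitors to the myeloid lineage, was at 191, 202 and 192 against 181, 176 and 175 CPM (−0.13, interval −0.27 to 0.02). The cell cycle list had 0 of 20 called and a median of −0.01, with all 20 intervals inside a 2-fold change. Of its members 4 (20%, against 7.49% of all genes) were lower without overlap and 0 higher. The proliferation gene Mki67 was at 960, 807 and 842 against 956, 910 and 984 CPM. Its one member with a change beyond 0.2 was the cell cycle inhibitor Cdkn1a, named after its values were seen, at 24.3, 24.6 and 30.1 against 18.4, 18.8 and 15.2 CPM (−0.58, interval −0.91 to −0.25).

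**Figure D4:**
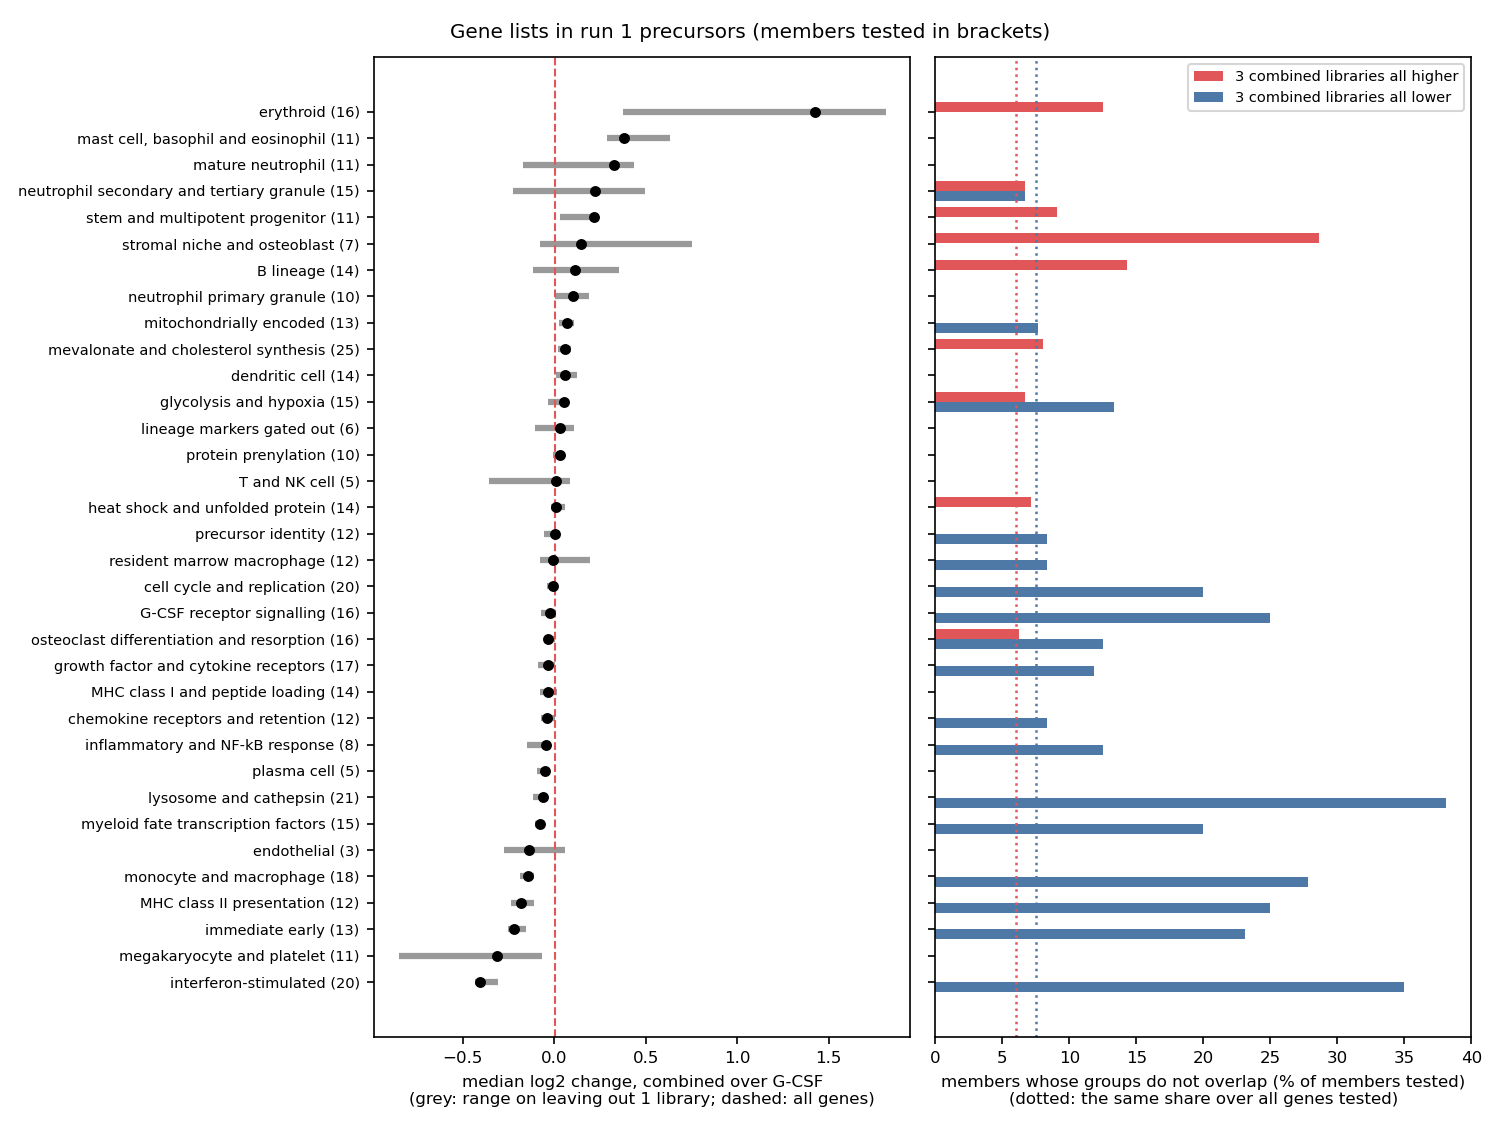
Left, median log2 change of the tested members of each gene list on the vertical axis, with the range on leaving out 1 library (grey) and the median of all genes (dashed). Right, share of the tested members that were higher or lower in all 3 combined libraries, with the same share over all genes dotted (6.04% higher, 7.49% lower). The erythroid list lies at 1.42 with a range of 0.37 to 1.81, and the interferon list at −0.40.

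Genes of other cell types did not give a steady picture, and combined replicate 3 took part in several. The erythroid list had 0 of 16 called, 15 positive changes and a median of 1.42, which was 0.37 without combined replicate 3. In 2 members (12.5%, against 6.04% of all genes) every combined library was higher. The globin gene Hbb-bs, which has near-identical copies, was at 171, 416 and 82.2 CPM against 347, 412 and 2961. The groups overlapped and combined replicate 3 alone was high, while untreated (623) and ZA (873) precursors lay above the other 5. The log2 change of Hbb-bs was 2.49, and 0.78 without combined replicate 3. Slc4a1, the red cell anion exchanger, was at 15.8, 15.1 and 2.55 against 80.5, 49.6 and 51.0 CPM (2.45 ± 0.64, adjusted p = 0.624). It was higher in every combined library, and its change was 2.55 without combined replicate 3. The untreated library (94.1) lay above every combined library, and the ZA library (31.7) lay between the groups. Alas2, which starts heme synthesis in red cells, was at 4.01, 8.64 and 1.44 against 11.7, 10.8 and 74.9 CPM (2.79 ± 1.03, adjusted p = 0.664), and its change was 1.27 without that library. Slc4a1 and Alas2 were named after their values were seen.

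The secondary and tertiary granule list had a median of 0.22 and the mature neutrophil list one of 0.32, and both turned negative without combined replicate 3 (−0.23 and −0.17). Neither list had a called member (0 of 15 and 0 of 11). The summed level of the granule list was 10640, 7355 and 9115 CPM with G-CSF and 6780, 7854 and 7259 with both, so the sum pointed lower where the median pointed higher. Lyz2 was its most abundant member. The alarmin gene S100a9 was at 140, 161 and 120 against 85.1, 143 and 308 CPM and overlapped. Its log2 change was 0.36, and −0.29 without combined replicate 3. In the stromal and osteoblast list 7 of 18 genes were tested and 0 passed. Among those tested, 4 had a positive and 3 a negative change (median 0.15). In 2 of them (28.6%, against 6.04% of all genes) every combined library was higher. The member Runx2, a bone and blood transcription factor, was at 105, 119 and 90.3 against 185, 130 and 142 CPM (0.55 ± 0.15, adjusted p = 0.624), higher in every combined library. Spp1, another member, had a negative change and overlapped, at 5.61, 9.995 and 7.84 against 7.84, 3.44 and 5.52 CPM (−0.47, interval −1.26 to 0.31). The part of other cell types in any of these differences was not tested.

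The changes moved with transcript length. Protein-coding genes of at least 5 CPM were divided into 4 bins of nearly equal size by their longest annotated transcript. The median log2 change was −0.075 in the bin of shortest transcripts (2435 genes of 204 to 2282 bases), −0.03 and 0.00 in the middle bins and 0.065 in the bin of longest transcripts (2434 genes of 4871 to 123179 bases). In the shortest bin 17.8% of genes were lower in every combined library and 1.52% higher, and in the longest 3.16% were lower and 11.2% higher. Within the shortest bin the 3 combined libraries deviated by −0.04, −0.03 and −0.06 from the mean of the 6, and the G-CSF libraries by −0.01, 0.06 and 0.08. G-CSF replicate 1 was thus closer to the combined libraries than the other 2 were. In the longest bin the combined libraries deviated by 0.046, 0.002 and 0.027 and the G-CSF libraries by 0.019, −0.047 and −0.047. There G-CSF replicate 1 lay within the combined range, so the groups overlapped. The longest transcripts of the named genes follow the same order in part: Arhgap32 has 13568 bases, Kmt2a 16470 and Cdk6 11525, whereas S100a6 has 783, H2afz 1069, Mcub 1318 and Capg 1400. Btnl9 (5273 bases) and Nsun3 (3813) were lower without being short. The 13 mitochondrially encoded genes are short (median 784 bases) and had a median change of 0.07, while the interferon list had a median length of 3355 bases, above that of all genes (2950). The lists described above as leaning the same way as the interferon list had shorter transcripts than all genes. Their medians were 1446 bases for MHC class II, 2313 for immediate early, 2571 for monocyte and macrophage and 2657 for lysosome genes. The part of length in the differences was not tested.

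**Figure D5:**
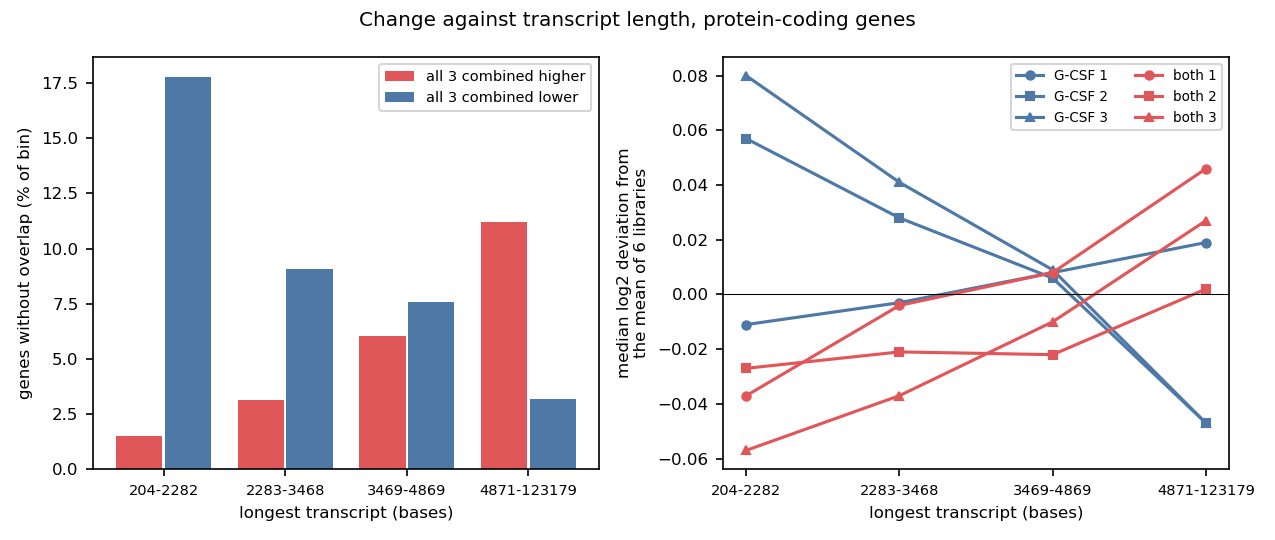
Protein-coding genes in 4 bins by their longest transcript (bases). Left, the share of each bin that was higher or lower in all 3 combined libraries. Right, the median log2 deviation of each library from the mean of the 6, 1 line per library. The share lower goes from 17.8% in the shortest bin to 3.16% in the longest, and the share higher from 1.52% to 11.2%.

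The second run offered a further look at the same groups, with limits. Its replicates 4 and 5 carry numbers that run 1 does not have, but each was closer to 1 run 1 library of its group than different run 1 replicates were to each other. The biological coefficient of variation between combined replicate 4 and run 1 replicate 1 was 0.0819, and between combined replicate 5 and run 1 replicate 3 it was 0.106. For G-CSF the corresponding values were 0.0928 (replicate 4 and replicate 1) and 0.0919 (replicate 5 and replicate 3). Different run 1 replicates gave 0.164 to 0.188 for G-CSF and 0.231 to 0.247 for the combined group. The samples labelled as sequenced in both runs varied widely, at 0.110 for G-CSF replicate 3, 0.159 for combined replicate 1, 0.301 for G-CSF replicate 1, 0.512 for combined replicate 3 and 0.715 for G-CSF replicate 2. In the last 3 of these the run 2 library had a summed erythroid level of 48400 to 227000 CPM. Replicates 4 and 5 are therefore not treated here as further samples.

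For these 4 libraries edgeR called 1 of 17479 genes (0.00572%), in a fit that also held the 6 run 1 libraries. The difference between the runs, from the same fit, was called for 1 of 17479 (0.00572%). Both calls were the same pseudogene, Rpl19-ps11, named after its values were seen. A fit of the run 2 libraries alone, with the replicate number as a block, called 0 of 15492. In the run 2 contrast of the first fit the 12 genes had the same sign as in run 1. The run 2 libraries, however, were close to those by which the genes were chosen. The shared sign is therefore not separate support. Slc2a3 had a log2 change of 1.05, S100a6 −0.48, Btnl9 −1.21 and Arhgap32 0.86, with adjusted p of 0.584 to 0.652. Tbc1d9b and Kmt2a changed less, at 0.13 and 0.27 against 0.58 and 0.54 in run 1 (adjusted p = 0.868 and 0.654 in run 2). When all 5 libraries a side were fitted as separate samples with a run term, edgeR called 86 of 16611 genes (0.518%), 43 higher and 43 lower, 38 of them among DESeq2's 81. These included 10 of the 12 genes, with Slc2a3, S100a6, Btnl9, Capg, Mcub and Foxj3 at an adjusted p = 0.0221. Arhgap32 (adjusted p = 0.0784) and Tbc1d9b (adjusted p = 0.112) were not called. That fit counts libraries close to each other as separate samples, so its p values are not separate support either. When each run 2 library was instead added to the run 1 library it resembled, so that each side had 3 samples again, edgeR called 0 of 17065 genes. The lowest adjusted p among the 12 was then 0.28, for Slc2a3, S100a6 and Foxj3.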

How the data were processed

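RNA of 6 sorted precursor libraries was compared. The authors deposited estimated counts per gene. The submitters' processing notes name Salmon, DESeq2 1.16.1 and mm10. The TPM deposited by the authors were used as another scale. The labels do not state whether strand was kept, so overlapping and antisense genes are uncertain, as are near-identical copies. Gene symbols and positions were taken from GENCODE vM21 (46201 of 46679 identifiers, 99%).

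After rounding, the counts went into edgeR 4.0.16 in R 4.3.3 (quasi-likelihood, robust, TMM scaling, filterByExpr with a minimum count of 10 and total of 15, Benjamini-Hochberg threshold 0.05) on these 6 libraries without covariates. Standard errors are the log2 change over the square root of F, and intervals are 95%. Alternatives were DESeq2 1.42.0, limma 3.58.1 on log2(TPM + 1 or 0.1) with a mean TPM filter of 1, no filter, each library left out, a replicate block and run 2 libraries. The scripts were tested on simulated data. Levels are TMM-scaled CPM over the 8 run 1 precursor libraries, and summed levels are CPM of the library total.

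Named genes were those past the threshold without overlap and at 5 CPM or more, otherwise up to 6 of lowest p in each direction, the 2 most abundant tested members of each list, and 12 genes always given. Predicted genes and pseudogenes were left out. Others are said to be named after their values were seen. The members and lists were chosen with earlier results of these data known. Some genes that the rule names, and 1 list, are not reported here.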

Additional observations from a re-analysis of the deposited data

Results flagged for a closer look

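The ribosomal protein pseudogene Rpl19-ps11 (chromosome 8, 19492936 to 19493526, mm10) differed between the runs. Its change in run 2 minus that in run 1 was −10.11 ± 0.86 on the log2 scale (adjusted p = 0.0286, edgeR). That fit counts run 2 replicates 4 and 5 as samples separate from the run 1 libraries they were close to. Its SE and adjusted p therefore do not measure the spread between separate samples. With the replicate number as a block, edgeR called 0 genes for this difference. Rpl19-ps11 had 97.8, 114 and 141 estimated counts in the run 1 G-CSF libraries and 140, 329 and 222 in the combined libraries. In run 2 it had 83.9 and 105 counts in G-CSF replicates 4 and 5 and 0 in both combined replicates. The fitted size depends on the prior count because 1 group is at 0, and it is no bound. How estimated counts were divided among near-identical copies of this gene was not tested.

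Several run 2 libraries labelled as precursors, outside the main comparison, held erythroid signal above that of the 6 run 1 libraries, where the summed level reached 6973 CPM. The sum was 227000 CPM in G-CSF replicate 2, 48400 in G-CSF replicate 1, 88400 in combined replicate 3 and 7910 in combined replicate 1 of run 2. The 3 run 1 whole marrow libraries had 196000 to 283000 CPM, and the run 2 libraries labelled as untreated and G-CSF whole marrow had 1570 and 1040. The precursor libraries among these enter only the setting that repeats the comparison with the same samples sequenced again.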

How the results depend on the processing

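Of 16 other settings of the run 1 comparison, edgeR called 0 genes with DESeq2's size factors, on leaving out each of the 6 libraries (0 to 0), with run 2 libraries of the same samples and, in an alternative chosen after seeing the data, with run 2 replicates 4 and 5 added to the closest run 1 library. limma on TPM without a filter called 0. The DESeq2 Wald test called 81 genes, edgeR without a filter on low counts 3 (Arhgap32, 4932438A13Rik and Gm26811), limma on TPM 4 with a pseudocount of 1 (Gm26079, n-R5s15, Gm24811 and Mir6516) and 11 with 0.1, and 5 libraries a side with a run term 86. On the TPM scale the median of all genes shifted to −0.26. Names in brackets were chosen after values were seen, Arhgap32 aside. On that scale Mir6236 and Gm23935 held 9.23, 19.0 and 8.09% of TPM in the G-CSF libraries and 35.2, 12.0 and 23.9% in the combined ones.

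For run 2 replicates 4 and 5 the count of 1 became 59 with the DESeq2 Wald test and 0 to 0 on leaving out a library. The count of 1 for the difference between runs became 0 to 2 on leaving out a library.

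With the replicate number as a block edgeR called 0 genes in run 1, 0 in run 2 and 0 for the difference between runs. Same-numbered libraries did not deviate together (r of −0.039, −0.035 and −0.097 over 10415 genes), so the numbers were not taken as a pairing.

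Over 115 named genes, 142 of 1826 other values had a changed sign, in 60 genes. Of the 12 genes chosen by lowest p, 1 of 190 values changed sign, Arhgap32 at −0.11 in the same samples sequenced again, where libraries with a marrow profile enter. Of 560 other list medians 57 moved by over 1 SD. With 3 libraries a side, the median 95% interval reached 0.43 to either side on the log2 scale, and genes of few counts had wider ones.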
